A study of Mus musculus with 10 samples.

Results

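The Ifit genes encode interferon-induced proteins with tetratricopeptide repeats. The members described here were Ifit1, Ifit2, Ifit3 and Ifit1bl1, 4 of the 13666 genes measured, selected by gene symbol with earlier results of these data known. Where a gene had several probe sets, the one with the highest mean was to be used, but each of these 4 genes had 1 probe set of its own, so this step decided nothing among them, and all 4 passed the filter on low values. No probe set that names several genes included an Ifit gene. Because the genes were proposed from this comparison, their differences between groups are given as descriptions of the same arrays and not as an independent finding.

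Transcript levels were measured in the terminal ileum of 10 male C57BL/6JJmsSlc mice aged 7 weeks, with 1 Affymetrix 3′ expression array per mouse. The 5 control mice were not stressed. The 5 stressed mice went through 10 days of subchronic social defeat by older male ICR resident mice, with contact of 5 min on day 1 that was shortened by 0.5 min a day to 0.5 min on the last day. Both groups received AIN-93G diet, were housed singly before the experiment, and were fasted for 3 h before the lower small intestine was taken. The comparison asks how the levels of the Ifit genes in the ileum differ after repeated social defeat. Values are log2 values made with RMA, and a difference is stressed minus control. Where nothing in the labels says how the mice were sampled, p-values measure the spread between these mice only.

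Ifit genes are among the genes most strongly induced by type I and type III interferons. Interferons bind receptors at the cell surface, and Jak kinases then activate transcription factors, Stat2 with its partner Irf9 among them, that bind the interferon-stimulated response element in promoters. Some Ifit proteins, Ifit1 among them, bind the ends of foreign RNA that lack the cap methylation of host messenger RNA, and limit its translation. In the intestine, epithelial cells and immune cells of the mucosa both respond to interferon.

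The members lie side by side on mouse chromosome 19, in the order Ifit2, Ifit3, Ifit1bl1, Ifit3b, Ifit1bl2, a pseudogene and Ifit1. Ifit1bl2 is a related gene of the cluster that was measured but is no member, and Ifit3b had no probe set of its own. The promoters are shown because the windows of the members differ in their matches to the core of the interferon-stimulated response element. The windows run from 250 bases before to 50 bases after a gene's start, on RefSeq assembly GRCm38.p6, and all 4 members matched a RefSeq promoter by symbol. Capitals mark GAAANNGAAA, or its reverse complement TTTCNNTTTC, the core of that element, searched on both strands. Ifit1 lies at chr19:34640639-34640938 on the plus strand, Ifit3 at chr19:34583279-34583578 on the plus strand, and the upper window of Ifit1bl1 at chr19:34601919-34602218 on the minus strand.
Ifit1: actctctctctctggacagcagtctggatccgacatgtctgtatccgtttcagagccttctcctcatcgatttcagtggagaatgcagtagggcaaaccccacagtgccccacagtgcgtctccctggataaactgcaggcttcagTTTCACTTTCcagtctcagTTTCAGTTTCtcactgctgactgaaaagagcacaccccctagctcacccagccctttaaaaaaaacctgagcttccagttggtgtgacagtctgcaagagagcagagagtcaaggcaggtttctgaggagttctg
Ifit3: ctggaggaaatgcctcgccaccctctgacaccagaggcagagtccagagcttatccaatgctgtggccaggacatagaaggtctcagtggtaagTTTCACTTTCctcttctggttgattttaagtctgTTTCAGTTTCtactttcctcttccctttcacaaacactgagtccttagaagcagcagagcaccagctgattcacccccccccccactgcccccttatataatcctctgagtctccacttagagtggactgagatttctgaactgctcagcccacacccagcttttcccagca
Ifit1bl1: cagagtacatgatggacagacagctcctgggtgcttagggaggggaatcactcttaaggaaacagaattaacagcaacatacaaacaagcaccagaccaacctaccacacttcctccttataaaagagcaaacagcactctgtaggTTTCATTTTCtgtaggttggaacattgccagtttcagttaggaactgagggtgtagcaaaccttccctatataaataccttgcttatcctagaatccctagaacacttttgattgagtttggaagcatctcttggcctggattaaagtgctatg

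Ifit1 held 2 matches, which began 104 and 85 bases before its start. Ifit3 held 2 as well, at 156 and 122 bases before its start. Each window of Ifit1bl1 held 1 match of its own, which in the window shown began 104 bases before the start. In the window of its other start, chr19:34599378-34599677, a separate match began 23 bases before that start. Both windows of Ifit2, at chr19:34550444-34550743 and chr19:34550838-34551137, held none, which says only that these letters are not in those windows. The pattern was found in 1131 of 32851 promoter windows of the genome, or 3.44%, and at least 2 matches were found in 74 windows, or 0.225%. The Ifit1 window overlapped a window of Ifit1bl2 (chr19:34640694-34640993, minus strand) by 245 bases, so that both genes hold the same 2 matches between these starts. The window of the other Ifit1bl2 start, chr19:34629762-34630061, did not overlap that of Ifit1 and held none. The windows of Ifit3 and Ifit3b were identical at 259 of 260 aligned bases. Whether RNA of Ifit3b also binds the Ifit3 probe set was not tested, and promoter windows cannot show it.

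Control mouse 1 stood apart from the other mice. Its array correlated with the others at 0.918 to 0.947, against 0.975 to 0.995 among the other 9 arrays. Fabp6, the ileal bile acid binding protein, was at 7.88 in control mouse 1 and from 13.9 to 14.1 in the other mice, and Car1, a carbonic anhydrase of the large intestine, was at 14.17 there. The array labelled ileum thus lacked the level of an ileal marker seen in the others. Stressed mouse 4 also had a high Car1 level, 13.32, with a Fabp6 level of 13.95. Car1 in the remaining mice was between 4.95 and 7.41. The comparisons were made for all 10 arrays and again without control mouse 1, a choice made with earlier results of these data known.

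Of the 4 members, Ifit1bl1 had the largest difference between the groups. It encodes an Ifit1-like protein of the same cluster. Its values in the control mice were 11.32, 11.10, 10.86, 10.47 and 9.99, and in the stressed mice 9.20, 9.54, 9.84, 9.27 and 8.98. Every stressed mouse was below every control mouse, with a gap of 0.155 between the lowest control and the highest stressed mouse. The control mean was 10.75 ± 0.53 (SD, n = 5). The stressed mean was 9.37 ± 0.33 (SD, n = 5). This was a difference of -1.38 ± 0.24 (SE, limma), or a level 2.61-fold lower, with a 95% interval of -1.92 to -0.85. It did not pass the threshold of 0.05 over all genes (limma with Benjamini-Hochberg adjustment, adjusted p = 0.252). No gene did in this comparison, so 0% of the 13666 genes were called in either direction, and 0% were called lower. At an unadjusted limma p, Ifit1bl1 ranked 7 of all genes.

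The control mean of Ifit1bl1 without control mouse 1 was 10.60 ± 0.48 (SD, n = 4), and the gene passed the test. There, Ifit1bl1 fell by 1.24 on the log2 scale (SE 0.22, limma, adjusted p = 0.0330), a level 2.36-fold lower, with a 95% interval of -1.72 to -0.76. In that comparison 0.798% of the genes were called in either direction and 0.534% were called lower. Ifit1bl1 was 1 of the 73 genes called lower. The other 3 members were not called. When 1 further mouse was left out of the 9, the adjusted p lay between 0.0215 and 0.0968, and the call was lost without control mouse 2, 3 or 4 or stressed mouse 1, 4 or 5. The call was also lost with every probe set fitted on its own and no filter on low values, a setting added after the data had been seen (limma, adjusted p = 0.0549). The difference without stressed mouse 4 as well was -1.22, with an adjusted p of 0.0968 (limma).

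**Figure D1:**
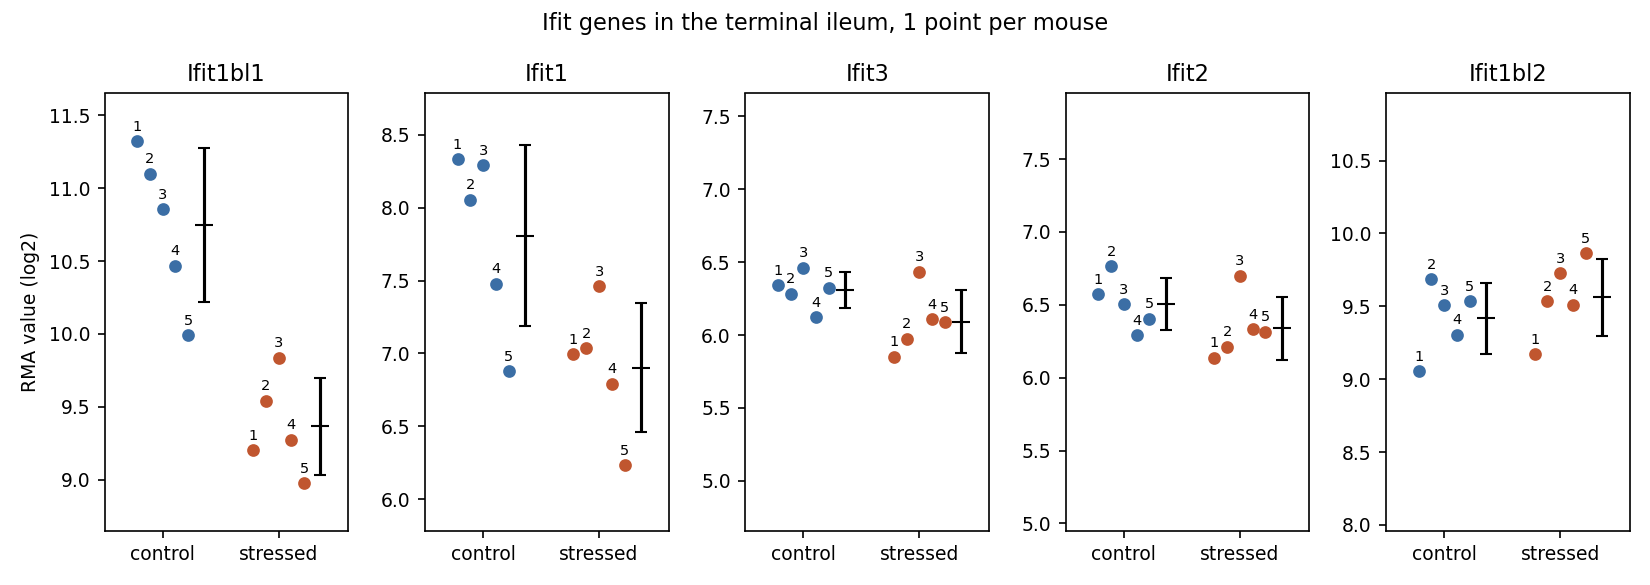
RMA values (log2) of the 4 Ifit members and of Ifit1bl2, with 1 point per mouse numbered as in its label, and bars for the mean and SD of 5 mice. Each panel spans the same log2 range around its gene. All 5 stressed mice lie below all control mice for Ifit1bl1 alone of these 5 genes, and the groups overlap for the others.

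Ifit1 is the best known member and binds RNA ends that lack host cap methylation. Its values were 8.33, 8.05, 8.29, 7.48 and 6.88 in the control mice. In the stressed mice they were 6.99, 7.04, 7.46, 6.79 and 6.23. The groups overlapped, since control mouse 5 was below 3 of the stressed mice and only 2 stressed mice were below every control mouse. The difference was -0.90 ± 0.30 (SE), or 1.87-fold lower, with a 95% interval of -1.55 to -0.25, and it did not pass the test (limma, adjusted p = 0.462). It was -0.77 ± 0.29 (SE) without control mouse 1, again short of the threshold (limma, adjusted p = 0.192).

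Ifit3, which can form complexes with other Ifit proteins, had values of 6.34, 6.28, 6.46, 6.12 and 6.33 in the control mice. In the stressed mice its values were 5.85, 5.97, 6.43, 6.11 and 6.09. The groups overlapped, and stressed mouse 3 was at the level of the controls. The difference was -0.22 ± 0.11 (SE), with a 95% interval of -0.46 to 0.03 (limma, adjusted p = 0.693). It was -0.21 ± 0.11 without control mouse 1 (limma, adjusted p = 0.361).

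Ifit2 encodes an RNA-binding member of the family that can join Ifit3. Its control values were 6.57, 6.76, 6.51, 6.29 and 6.41. In the stressed mice they were 6.14, 6.21, 6.70, 6.33 and 6.32. These groups overlapped too, with stressed mouse 3 second only to control mouse 2. The difference was -0.17 ± 0.12 (SE), with a 95% interval of -0.43 to 0.10 (limma, adjusted p = 0.787). It was -0.15 ± 0.12 without control mouse 1 (limma, adjusted p = 0.548). Both intervals of Ifit2 and Ifit3 hold 0, which does not show that these genes stayed the same. With arrays weighted by their quality in limma, the 10-array differences were nearer 0, at -0.49 for Ifit1, -0.11 for Ifit3 and -0.07 for Ifit2.

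The 4 differences were all negative, with 1.12% of all genes having every stressed mouse below every control mouse in the 10 arrays and 2.72% without control mouse 1. Of the members only Ifit1bl1 met this condition, in either set of arrays. In all genes, 49.1% had a lower mean in stressed mice in the 10 arrays and 43.8% did so without control mouse 1. The 2-sided exact permutation test of each member over all assignments of the 10 arrays gave p = 0.00794 for Ifit1bl1, the smallest value it can give. The exact permutation p was 0.0476 for Ifit1, 0.0952 for Ifit3 and 0.214 for Ifit2. Over all assignments of the 9 arrays the exact permutation p was 0.00794 for Ifit1bl1, 0.0794 for Ifit1, 0.143 for Ifit3 and 0.317 for Ifit2. Since these genes were chosen with results known, these p-values describe the arrays and carry no adjustment for that choice.

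**Figure D2:**
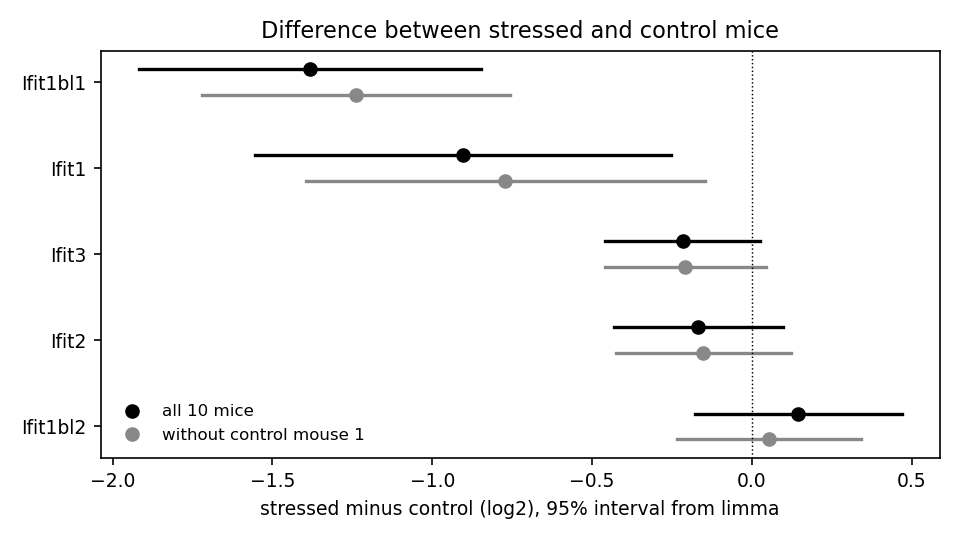
Difference between stressed and control mice (log2) for the 4 members and Ifit1bl2, with the 95% interval from limma, for all 10 mice (black) and without control mouse 1 (grey). The intervals of Ifit1bl1 and Ifit1 lie below 0, and those of Ifit3, Ifit2 and Ifit1bl2 hold 0.

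The members did not differ between the groups to the same extent. For each pair of the 5 measured genes of the cluster, the log2 ratio of the 2 genes was taken in each mouse and tested for a difference by an exact 2-sided permutation test, adjusted over the 10 pairs. These ratios were chosen after the data had been seen. The ratio of Ifit1bl1 to Ifit2 was lower in stressed mice by 1.21, and that of Ifit1bl1 to Ifit3 by 1.17, each with no overlap between the groups (exact permutation p = 0.00794, adjusted p = 0.0265). These differences were 1.09 and 1.03 without control mouse 1, with the same p-values. Ifit1bl1 also differed more than Ifit1, by 0.479 (exact permutation p = 0.0159, adjusted p = 0.0397), but the groups overlapped, and without control mouse 1 the adjusted p was 0.0794. The ratio of Ifit2 to Ifit3 differed by 0.0479 (exact permutation p = 0.603). A ratio shows unequal change between 2 probe sets and says nothing of which was constant. The mean level over the 10 mice was 6.42 for Ifit2 and 6.20 for Ifit3, below the 10.06 of Ifit1bl1. Whether the lower level has a part in their smaller differences was not tested.

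Ifit1bl2, which shares the region upstream of 1 of its starts with Ifit1, had no lower mean in stressed mice. Its values in the control mice were 9.05, 9.68, 9.51, 9.31 and 9.53, and in the stressed mice 9.17, 9.53, 9.73, 9.51 and 9.87. The groups overlapped, and the highest value was in stressed mouse 5, the mouse with the lowest Ifit1 and Ifit1bl1. The difference was 0.14 ± 0.15 (SE, limma, adjusted p = 0.839), and 0.05 ± 0.13 without control mouse 1 (limma, adjusted p = 0.857). The ratio of Ifit1 to Ifit1bl2 was lower in stressed mice by 1.05 on the log2 scale (exact permutation p = 0.0397, adjusted p = 0.0496), and by 0.826 without control mouse 1 (exact permutation p = 0.0873, adjusted p = 0.125). The ratio of Ifit1bl1 to Ifit1bl2 differed by -1.53, and by -1.29 without control mouse 1, with no overlap in either (exact permutation p = 0.00794, adjusted p = 0.0265). A second probe set of Ifit1bl2 with a lower mean gave differences of -0.09 and -0.19.

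From mouse to mouse, 2 of the 6 pairs of members had a correlation over the 10 mice that passed the test. Ifit1 and Ifit1bl1 correlated at Pearson r = 0.930 and Spearman rho = 0.891 over the 10 mice (permutation p = 0.00014 and 0.00131, adjusted over 6 pairs 0.00084 and 0.00786). Without the 2 mice farthest from the median of Ifit1, r was 0.888. After each group's mean was taken off, r was 0.932, so the relation was also present within groups, and over the 9 mice without control mouse 1 it was 0.907. Control mouse 5 was the lowest control for both genes, and stressed mouse 3 was the highest stressed mouse for both.

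Ifit2 and Ifit3 correlated at r = 0.830 and rho = 0.806 (permutation p = 0.00355 and 0.00717, adjusted 0.0106 and 0.0215). Without the 2 mice farthest from the median of Ifit2, r was 0.938, with group means taken off it was 0.788, and without control mouse 1 it was 0.819. Stressed mice 1 and 2 had the lowest values of both genes. The other 4 pairs, each made of 1 gene from either pair, had r between 0.611 and 0.664, with adjusted permutation p-values of 0.0619 to 0.0624. With group means taken off, Pearson's r passed the test for none of these 4, but Spearman's rho did for Ifit1 with Ifit2 and for Ifit2 with Ifit1bl1 (rho = 0.697 in each, adjusted permutation p = 0.0444). The centred values were shuffled over all mice and not within each group, which can make these p-values too small. All members come from the same arrays, so part of a shared level can be a property of the array, and the difference between the 2 sets of correlations was not tested.

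**Figure D3:**
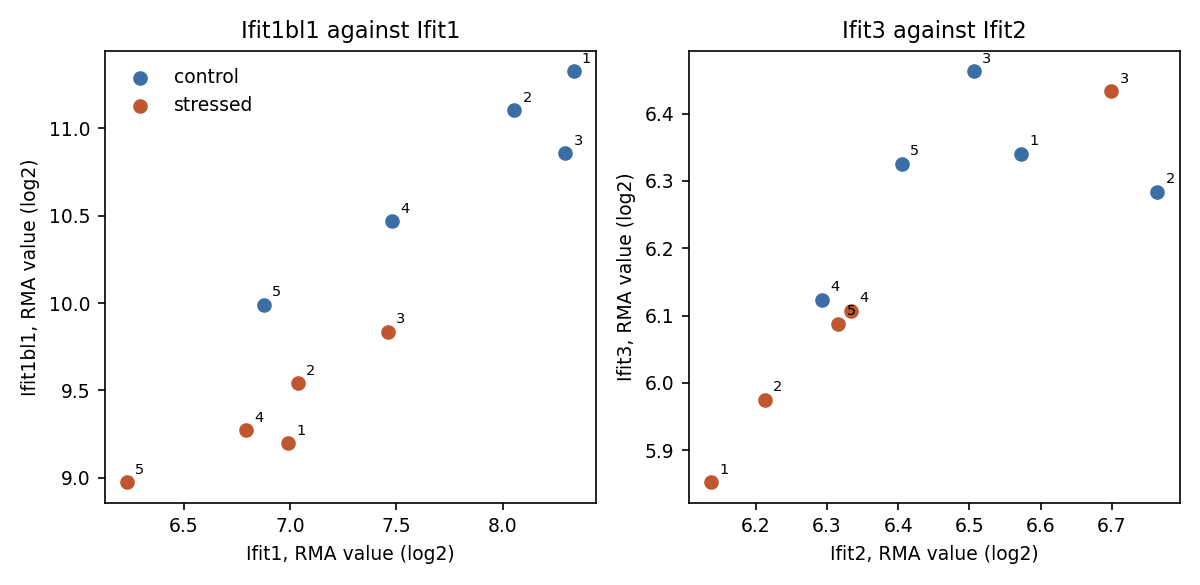
RMA values (log2) of Ifit1bl1 against Ifit1 (left) and of Ifit3 against Ifit2 (right), with 1 point per mouse, numbered, in blue for control and in orange for stressed mice. Pearson r over the 10 mice is 0.930 on the left and 0.830 on the right.

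The other genes of the interferon pathway were read from 6 lists of 103 genes, of which 80 were measured. In the 10 arrays 55 of the 80, or 68.8%, had a lower mean in stressed mice, beside 49.1% of all genes. The median difference was -0.10, beside 0.00 for all genes, and none was called. Without control mouse 1, 56 were lower, with a median of -0.12 beside 0.03 for all genes, and 1 was called, beside 0.798% of all genes. In both sets Ifit1bl1 had a larger difference than any of the 80, and Ifit1 was exceeded by 1 gene, Zbp1. In 3 of the 80, or 3.75%, every stressed mouse was below every control mouse (Zbp1, Dhx58 and Herc6), beside 1.12% of all genes. Without control mouse 1 there were 6, or 7.5%, beside 2.72% of all genes.

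Among the ligands, 5 of 5 measured interferon genes had a lower mean in stressed mice in the 10 arrays, and 4 of 5 without control mouse 1. The list mean was 4.45 to 5.09 over the mice, little above the floor of 4.15 set by the filter on low values. Ifnb1, the interferon beta gene, had -0.31 ± 0.20 (SE), with adjusted p = 0.772 (limma), and -0.39 ± 0.20 without control mouse 1. Of the 6 receptor genes 2 were lower in both sets, and Ifnlr1, a subunit of the receptor for interferon lambda, had 0.22 ± 0.11 and, in the 9 arrays, 0.17 ± 0.10. None of the ligands or receptors was called in either set of arrays.

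Of 8 signal transduction genes 3 were lower and 5 were higher in the 10 arrays, and 4 were lower in the 9. Irf9, the DNA-binding partner of Stat2, had -0.10 ± 0.12, and Stat2 had 0.00 ± 0.13, with -0.11 and -0.02 in the 9 arrays. Usp18, an interferon-induced inhibitor of the receptor, had -0.40 ± 0.26, and -0.57 ± 0.23 without control mouse 1 (limma, adjusted p = 0.226). Jak2, a kinase of several cytokine receptors, had 0.30 ± 0.11 (limma, adjusted p = 0.511), and 0.23 ± 0.09 in the 9 arrays. Of the 6 interferon regulatory factors 4 were lower in both sets, among them Irf1 at -0.28 ± 0.10 and Irf7, which drives interferon alpha genes, at -0.25 ± 0.13 (limma, adjusted p = 0.511 and 0.714). In the 9 arrays these were -0.31 and -0.21 (limma, adjusted p = 0.161 and 0.441).

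Of 16 sensors and adaptors 10 were lower in the 10 arrays and 11 in the 9. Zbp1, a sensor of Z-form nucleic acid, had values of 6.92, 7.85, 7.44, 6.99 and 6.83 in the control mice. In the stressed mice its values were 6.11, 6.50, 6.41, 5.92 and 6.15. The groups did not overlap, and the difference was -0.99 ± 0.19 (SE, limma, adjusted p = 0.261). Without control mouse 1 Zbp1 fell by 1.06 (SE 0.19, limma, adjusted p = 0.0342), the only gene of the 80 that was called. Dhx58, a helicase related to the RNA sensor RIG-I, had -0.46 ± 0.16 (limma, adjusted p = 0.496), and -0.49 ± 0.16 in the 9 arrays (limma, adjusted p = 0.155). Its groups did not overlap, but the lowest control mouse was at 4.68 and the highest stressed mouse at 4.67. Stressed mouse 4, at 3.74, was below the floor of 4.15.

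Of the 39 other interferon-induced genes measured, 31 were lower and 8 were higher in both sets, with a median of -0.16 in the 10 arrays and -0.15 in the 9. Oas1a, an enzyme that makes a messenger which activates RNase L, had -0.49 ± 0.12, and Herc6, a ligase for the ubiquitin-like Isg15, had -0.32 ± 0.10 (limma, adjusted p = 0.345 and 0.446). In the 9 arrays they had -0.50 and -0.30 (limma, adjusted p = 0.0862 and 0.168). Parp9 and Dtx3l, whose proteins act as a pair, had -0.47 ± 0.11 and -0.40 ± 0.11 without control mouse 1, where their groups did not overlap (limma, adjusted p = 0.0639 and 0.108). Cmpk2, a mitochondrial nucleotide kinase, had a higher mean, with 0.50 ± 0.22 in the 10 arrays (limma, adjusted p = 0.615) and 0.38 ± 0.20 in the 9. Isg15 is not analysed here. For the partners of Ifit action, 1 of the 4 measured enzymes that build or methylate the mRNA cap was lower, and 0 of 4 without control mouse 1. Of 11 subunits of the initiation factor eIF3, 8 were lower, but 3 without control mouse 1. None of these 15 genes was called.

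**Figure D4:**
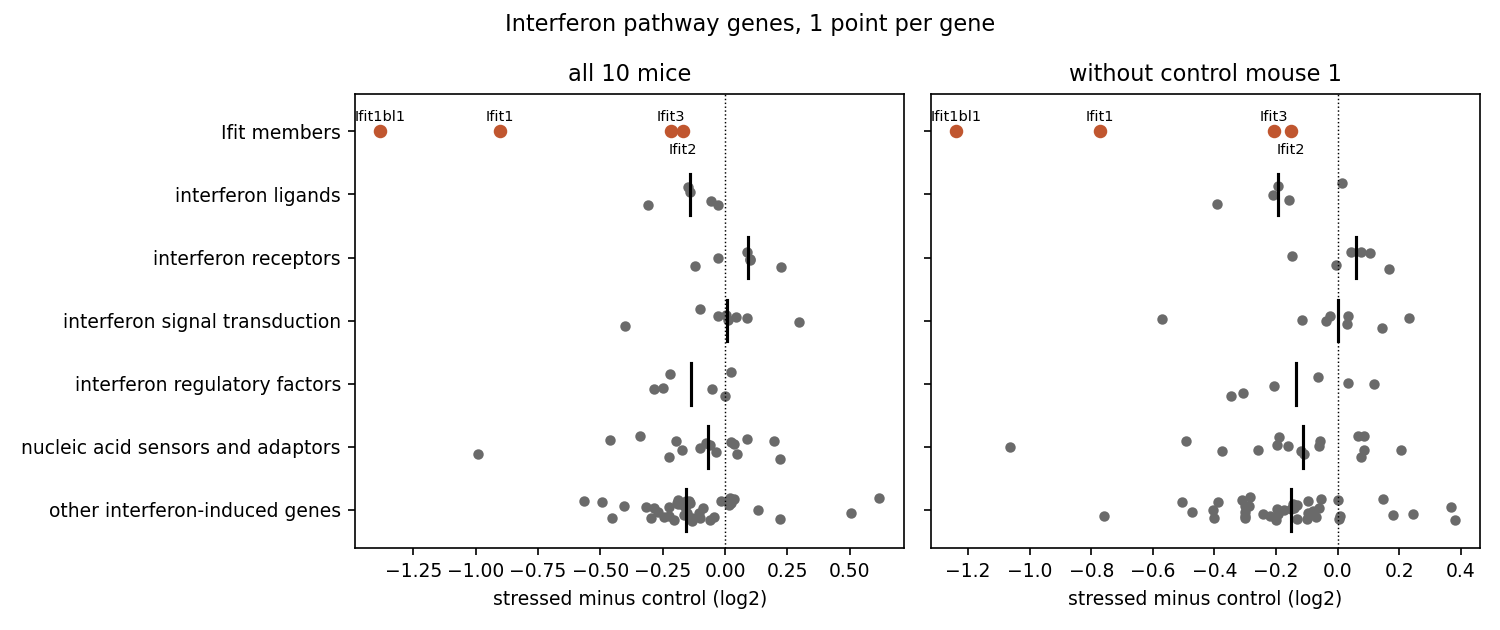
Difference between stressed and control mice (log2) for the 4 Ifit members and the 80 measured genes of 6 interferon lists, with 1 point per gene, for all 10 mice (left) and without control mouse 1 (right, with its own axis). Vertical bars are list medians. Ifit1bl1 is farthest to the left in both panels, and Zbp1 is the lowest grey point.

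Among 10956 tested genes with a promoter sequence, 399 held the response element core, or 3.64%. Of these 399, 229, or 57.4%, had a lower mean in stressed mice in the 10 arrays, beside 48.9% of all with a promoter sequence. The shares without control mouse 1 were 52.9% and 43.4%. Of 64 interferon list genes with a promoter sequence, 20, or 31.2%, held the pattern, and 15 of these 20 had a lower mean in the 10 arrays and 17 in the 9, as had 28 of the 44 without it in either set. Ifit2, with no match in its windows, had a difference of -0.17, and Ifit3, with 2, had -0.22, and both intervals hold 0. Whether the pattern has a part in any of these differences was not tested.

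The genes with a pattern across the mice most like the members were ranked by Pearson r with the mean of the members' standardized values, over 13018 genes. The 8 highest over the 10 arrays were Srrd at 0.944, Xaf1 at 0.900, Mrps11 at 0.897, Ssr4 at 0.881, Trgv1 at 0.880, Plpp6 at 0.880, Mob2 at 0.878 and Tmem140 at 0.878. Over the 9 arrays they were Mical2 at 0.941, Srrd at 0.939, Med6 at 0.936, Sp110 at 0.917, Usp18 at 0.917, Mrps11 at 0.916, Igha at 0.914 and C1qa at 0.913. Srrd and Mrps11 appeared in both. Of the interferon list genes, Xaf1 ranked 2 and Oas1a ranked 35 over the 10 arrays, and Usp18 ranked 5 and Xaf1 ranked 21 over the 9 arrays. These points share the array with the members.

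The genes around the cluster were read as well. Of the 5 measured genes on each side (Lipa, Ch25h, Fas, Acta2 and Stambpl1 before Ifit2, and Slc16a12, Pank1, Kif20b, Rpp30 and Pcgf5 after Ifit1), 5 of 10 had a lower mean in stressed mice in the 10 arrays. Their differences ran from -0.31 to 0.24, and from -0.33 to 0.35 in the 9 arrays, and none was called by limma in either set (1 and 2 genes had an unadjusted p under 0.05). Pcgf5, a Polycomb component, was the lowest at -0.31 ± 0.09, with no overlap between its groups. Lipa, the lysosomal acid lipase, had 0.24 ± 0.12, and 0.35 ± 0.08 without control mouse 1 (limma, adjusted p = 0.0669).

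Immune cell markers also had lower means in stressed mice. In a bulk sample, fewer cells of a type and less RNA per cell cannot be told apart. For T cells and intraepithelial lymphocytes, 10 of 11 measured markers had a lower mean in stressed mice with and without control mouse 1, and the mean of the list was 5.81 to 6.99 in control and 5.63 to 6.04 in stressed mice. Gzma, a granule protease of these cells, was at 6.19, 10.08, 9.44, 8.53 and 6.63 in the control mice and at 7.48, 5.66, 6.98, 6.24 and 5.66 in the stressed mice. Control mice 2, 3 and 4 were above every stressed mouse for Gzma, and control mice 1 and 5 were not. From control mouse 2 to control mouse 5, Gzma and Ifit1bl1 fell in the same order. Control mouse 1 had the lowest Gzma and the highest Ifit1bl1 of the controls, and in the stressed mice the orders of these genes differed. Whether these levels are linked was not tested. For B cells and Peyer's patches 8 of 8 markers were lower in both sets, with list means of 4.48 to 6.52 in control and 4.79 to 5.08 in stressed mice. Control mouse 1 was the lowest, and without it the control range was 5.17 to 6.52, above every stressed mouse. The T cell list without control mouse 1 was at 5.97 to 6.99 in control mice and still overlapped the stressed mice. Without control mouse 1 the B cell markers Ly6d and Pou2af1 fell, with differences of -1.03 and -1.28 (limma, adjusted p = 0.0245 and 0.0372), beside 0.798% of all genes called. The only other marker called there was Cubn, an enterocyte receptor, which rose by 0.70 (limma, adjusted p = 0.0245).

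For macrophages and dendritic cells 10 of 13 markers were lower in both sets of arrays, with list means of 7.64 to 7.96 and 7.58 to 7.79. For plasmacytoid dendritic cells, a main source of interferon alpha, 5 of 5 were lower in the 10 arrays but 3 of 5 without control mouse 1, with list means of 6.27 to 6.42 and 6.07 to 6.30. In this list the control mean was 10.99 for Klk1 and 4.96 to 5.60 for the rest, not far above the floor of 4.15. Whether these levels come from this cell type was not tested. For ileal enterocytes, 11 of 11 markers were higher in stressed mice in the 10 arrays and 8 of 11 without control mouse 1, and the list mean was 8.47 in control mouse 1 and 11.7 to 12.1 in all others. For the large intestine, it was 9.95 in control mouse 1, 8.85 in stressed mouse 4 and 5.33 to 5.94 in the rest. The log2 ratio of 3′ to 5′ control probe sets, a measure of RNA quality, was 0.445 to 0.629 in control mice and 0.506 to 1.13 in stressed mice, with the highest in stressed mouse 1. The part of these cell markers and of RNA quality in the differences of the Ifit genes was not tested.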

How the data were processed

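Ileum RNA of 10 mice was hybridised to 1 array each, and the titles of the samples gave the groups. The authors deposited log2 values made with RMA, per the submitters' processing notes, with the software version not given in the sources used here. Since RMA equalises the distributions of the arrays, it hides any change in total RNA, and differences of genes near background are understated. Base 2 was taken from the range of values, 1.22 to 14.4.

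Of 45101 probe sets, 34945 had 1 gene symbol in the platform annotation, and the others were left out of gene tests. The lowest 40 percent by mean were left out (a floor of 4.15), and each gene was read from its probe set with the highest mean, which left 13666 genes. The tests used limma 3.58.1 in R 4.3.3 (lmFit and eBayes, Benjamini-Hochberg, threshold 0.05). On simulated data, 200 of 200 changed genes were recovered at a change of 2 (log2), with 9 false calls. That change is larger than the difference of any Ifit member, and the simulated noise was independent between genes and arrays. The simulation therefore does not show whether differences as small as those of the members would be called. Permutation tests used SciPy 1.17.1, with 100000 resamples for correlations, and promoters were aligned with Biopython 1.88. Alternatives were other filters, probe set rules, centring, array weights, trended variance, a replicate block and leaving out each mouse.

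The members, lists and tests were chosen with earlier results of these data known. Named genes were all Ifit genes, up to 4 genes by p of each pathway list in either fit, genes called, Stat2, Irf7, Irf9 and Isg15, 5 neighbours on each side and the 8 most alike genes. Gzma, Ly6d, Pou2af1, Cubn, Fabp6 and Car1 were named after their values were seen, and 1 further gene of the rule is not reported here. The number of arrays limits the precision.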

Additional observations from a re-analysis of the deposited data

Results flagged for a closer look

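Outlying mice were sought among the named genes and Ifit members, in 134 groups of 5 mice from 67 genes, by a gap to the nearest mouse over 0.71 of the group's range. Chance alone marks about 5 percent of such groups, and 14 were marked here, of which none was an Ifit gene.

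Control mouse 1 stood apart for Tyk2 (7.27), Eif3h (11.17), Igha (12.63), Lipa (8.64), Acta2 (13.14) and Stambpl1 (6.92). Control mouse 3 stood apart for Ifngr1 (10.20) and Eif3i (10.81), and control mouse 4 for Rnmt (7.49). Stressed mouse 1 stood apart for Eif3e (11.26) and Eif3i (11.42), and stressed mouse 2 for Stat2 (4.41) and Eif3h (10.61). Stressed mouse 3, the highest stressed mouse for Ifit1, Ifit1bl1, Ifit2 and Ifit3, stood apart for Xaf1 (7.13).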

How the results depend on the processing

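All 4 members kept a lower mean in stressed mice in 20 of 20 alternatives to the 10-array comparison and in 19 of 19 without control mouse 1, the further omissions among the latter, and every probe set with no filter, added after the data had been seen. Filters, probe set rules and trended variance could not change these differences, because each member had 1 probe set. The replicate block could not change them in the 10-array comparison either. For these settings the direction was fixed in advance, and only the p-values could move. Array weights gave Ifit1 -0.49, Ifit2 -0.07 and Ifit3 -0.11, and -0.48, -0.05 and -0.10 without control mouse 1. With all 10 arrays, 2 genes were called with the mean of probe sets, 2 with arrays centred and 41 with array weights, and 0 to 109 when 1 mouse was left out. The leave-one-out differences of Ifit1bl1 ran from -1.57 to -1.24, with 0 to 1 member and 0 to 1 interferon gene called, the 1 in each case without control mouse 1. Without control mouse 1, 64 probe sets were called with each on its own, 242 genes with arrays centred and 169 with a trended, robust variance, beside 109, and 6 to 154 when a further mouse was left out. Interferon genes called were 0 over every probe set, 2 with the mean of probe sets, 2 with centring and 0 to 2 on omission. Ifit1bl1 had -1.02 with array weights (adjusted p = 0.0571, limma), so that 0 members were called, and -1.44 to -1.07 on omission, with 0 to 1 member called. Centring took the share of genes with a higher mean from 50.9% to 41.5%, and from 56.2% to 39.9% without control mouse 1. With every probe set and no filter, 101 of 155 interferon probe sets had a lower mean in the 10 arrays and 102 of 155 without control mouse 1, beside 55 and 56 of 80 genes. In that setting without control mouse 1, 45 probe sets, 0 members and 0 interferon probe sets were called, and Ifit1bl1 had -1.24 (adjusted p = 0.0549, limma). The cause of these changes was not tested.

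Deviations of mice with the same number correlated at -0.297 to 0.277 over all genes. The labels do not say whether the numbers pair the mice, and these correlations cannot settle it. With the replicate block and without control mouse 1, Ifit1 had -0.80 (adjusted p = 0.0174, limma) and 2 members were called.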
